A study of Mus musculus with 8 samples.

Results

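The Ly6 genes described here are 5 members of the Ly6 family of small surface antigens, Ly6c1, Ly6c2, Ly6a, Ly6e and Ly6i, taken by gene name from a count table of 15566 mouse genes. All 5 had a row and all 5 had enough counts to be tested. Messenger RNA was sequenced from bone marrow monocytes with high Ly6C, taken by sorting from femur and tibia of untreated male C57BL/6 mice, 8 weeks old, with 4 libraries in each group. One group, labelled LysMDCommd10, was bred to lack Commd10, a gene for a protein trafficking adaptor, in cells that express LysM-Cre. This recombinase is driven by the lysozyme promoter in monocytes, macrophages and neutrophils. The control group is Commd10fl/fl, weight-matched littermates that carry the floxed gene. The gate took living cells with CD45, CD11b, CD115 and high Ly6C, and left out cells with CD117 or Ly6G.

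Ly6 proteins are short chains folded by disulfide bonds into a single three-finger domain and held in the membrane by a glycosylphosphatidylinositol (GPI) anchor. Ly6C, the antigen of classical monocytes in mice, is made by Ly6c1 and Ly6c2, and Ly6G, made by a neighbouring gene, marks neutrophils. Ly6a encodes Sca-1, an antigen of stem cells, activated lymphocytes and endothelium, and Ly6e encodes a widely expressed, interferon-inducible member. Ly6i encodes a close relative of Sca-1 found on myeloid cells. Because cells were sorted on Ly6C protein, the level of Ly6c2 was measured among cells already chosen for its product in both groups.

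All 5 genes lie in 1 cluster on chromosome 15 (GRCm38). Ly6e (ENSMUSG00000022587) spans 74955051 to 74959905 on the plus strand. The other 4 are on the minus strand, Ly6i (ENSMUSG00000022586) at 74979534 to 74983430, Ly6a (ENSMUSG00000075602) at 74994877 to 74998031, Ly6c1 (ENSMUSG00000079018) at 75044018 to 75048830 and Ly6c2 (ENSMUSG00000022584) at 75108158 to 75111970. Each is annotated as protein-coding, and the counts cover whole genes, so no exon is singled out.

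Ly6c2 and Ly6c1 are shown first because their sequences decide which reads can be told apart. Their coding sequences, without the stop codon, are each 393 bases and differ at 9 positions, an identity of 97.7%. Bases 1 to 270 are printed (GENCODE M21, minus strand), the capitals mark the 7 differing bases among them, and positions are counted from 1 at the A of the start codon. From Ly6c2 to Ly6c1 the differences are G8C, A10T, G16A, T31G, G36C, G65A, A254G, C327T and A376G.
Ly6c2: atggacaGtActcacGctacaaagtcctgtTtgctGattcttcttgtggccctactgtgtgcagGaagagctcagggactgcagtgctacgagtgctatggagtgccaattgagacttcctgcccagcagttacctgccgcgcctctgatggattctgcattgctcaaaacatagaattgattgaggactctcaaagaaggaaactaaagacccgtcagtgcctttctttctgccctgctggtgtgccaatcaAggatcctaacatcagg
Ly6c1: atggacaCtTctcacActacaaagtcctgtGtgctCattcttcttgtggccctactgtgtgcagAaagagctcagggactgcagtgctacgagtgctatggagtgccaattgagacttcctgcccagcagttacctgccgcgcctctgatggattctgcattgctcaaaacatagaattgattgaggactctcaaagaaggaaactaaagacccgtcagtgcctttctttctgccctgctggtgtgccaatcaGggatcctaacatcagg
The first 6 differences fall at the start, which codes for the signal peptide, and they are followed by an identical run of 188 bases, from 66 to 253. Windows of 75 bases were taken along the transcripts as a stand-in for single reads; 21.9% of those of the chosen Ly6c2 transcript and 23.2% of those of the Ly6c1 transcript also occur, letter for letter, in a transcript of another gene. At this length, for Ly6c2 that gene is always Ly6c1. The share was 2.38% for Ly6a and 0.555% for Ly6i, and 0 of 2207 windows of Ly6e were shared. Reads from such stretches cannot be assigned, and the sources do not state how they were counted, so levels of Ly6c1 and Ly6c2 are the less certain ones. Among the other members, Ly6a and Ly6i are 86.3% identical in coding sequence, each is 81.3% to 81.8% identical to Ly6c1 and Ly6c2, and Ly6e is 49.5% to 52.2% identical to the rest.

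Ly6c2 and Ly6e made up nearly all of the family's RNA. Together the 5 genes took 0.411% to 0.484% of all counts of a library, and Ly6c2 with Ly6e took 99.5% to 99.6% of that. To compare genes, levels were divided by the length of 1 chosen coding transcript, in CPM (counts relative to the size of the library, scaled by TMM) per kb. On that scale Ly6c2 stood at 2170 ± 33.9 in the controls and 2403 ± 136 in the deficient libraries (SD, n = 4 each), and Ly6e at 1045 ± 25.1 and 1186 ± 54.3. Ly6i followed at 8.80 ± 1.76 and 9.84 ± 2.19, Ly6a at 7.38 ± 0.53 and 8.03 ± 1.01, and Ly6c1 came last at 1.12 ± 0.15 and 1.07 ± 0.19.
The order of Ly6i and Ly6a is not resolved, since their control ranges on this scale overlap, at 6.39 to 10.4 and 6.87 to 7.98 CPM per kb. The order of Ly6c2 and Ly6e depends on the length used: per kb of all annotated exons, the control ranges were 636 to 657 and 617 to 650 CPM per kb and overlap. The steps from Ly6e down to Ly6i and from Ly6a down to Ly6c1 were wider than any spread between libraries on both scales.

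**Figure D1:**
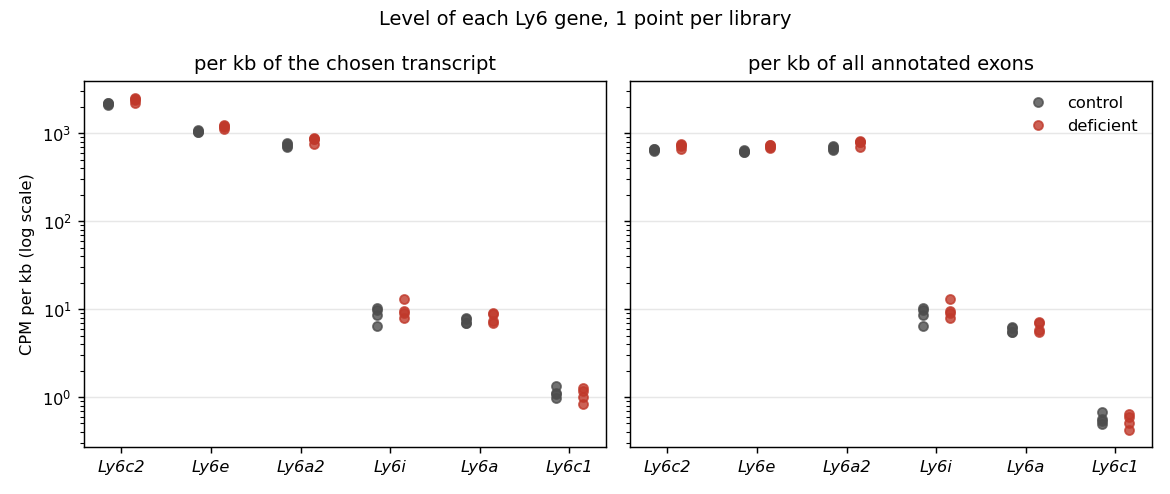
Level of each member and of the neighbouring gene Ly6a2 in CPM per kb on a log axis, 1 point per library, control in grey and deficient in red, divided by the length of 1 chosen transcript (left) or of all annotated exons (right). Ly6c2, Ly6e and Ly6a2 sit at 617 CPM per kb or more in every library, Ly6i and Ly6a between 5.45 and 12.96, and Ly6c1 at 1.33 or less.

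Ly6c1 was near the limit of detection although its transcript is 95.02% identical to that of Ly6c2. It had 21, 20, 16 and 29 counts in control 1 to 4 and 26, 30, 12 and 32 counts in deficient 1 to 4. The counting error alone is 17.7% to 28.9% of such counts. Ly6c2 had 45899, 39879, 24791 and 55494 counts in the same controls and 64324, 60696, 31237 and 58742 in the deficient libraries. Ly6c1 counts were therefore 0.0384% to 0.0645% of the sum of both genes in a library; the exact 95% binomial intervals of single libraries ran from as low as 0.0198% to as high as 0.105% and cover counting error only. The share was 0.0531% ± 0.0080 in the controls and 0.0457% ± 0.0076 in the deficient libraries (SD, n = 4 each), a difference that exact permutation over the 70 assignments did not separate from the spread (p = 0.229, two-sided). Over all annotated transcripts of Ly6c1, 68.7% of the 75-base windows match a window of another gene of the cluster examined here within 2 substitutions. On that basis 19.0% occur letter for letter in another gene, beside 23.2% for the chosen transcript alone. The near matches were not split by gene. A few misread Ly6c2 reads could be counted as Ly6c1, but their part in the Ly6c1 counts was not tested.

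The promoter windows used for Ly6c2 and Ly6c1 differ more than their transcripts do, in part because the windows are offset. RefSeq promoter windows (GRCm38.p6, 250 bases before to 50 bases after the annotated start, minus strand) were on hand for Ly6c2 and Ly6c1 and for Ly6a2, a gene next to Ly6c2 (I830127L07Rik in the table, called a transcribed pseudogene by GENCODE and protein-coding by RefSeq). The source held 2 windows each for Ly6c2 and Ly6c1 and 1 for Ly6a2. For each gene the window whose start lay nearest the GENCODE start was used. The other windows of Ly6c2 and Ly6c1 were not compared, so what follows holds for the printed windows only. These are printed because Ly6c1 stands far below Ly6c2 and Ly6a2 in level. The Ly6c2 window is chr15:75111922-75112221, that of Ly6a2 is chr15:75135079-75135378 and that of Ly6c1 is chr15:75048788-75049087. Capitals mark GGAAGT, letters found in sites of ETS factors such as PU.1, and TATAAA.
Ly6c2: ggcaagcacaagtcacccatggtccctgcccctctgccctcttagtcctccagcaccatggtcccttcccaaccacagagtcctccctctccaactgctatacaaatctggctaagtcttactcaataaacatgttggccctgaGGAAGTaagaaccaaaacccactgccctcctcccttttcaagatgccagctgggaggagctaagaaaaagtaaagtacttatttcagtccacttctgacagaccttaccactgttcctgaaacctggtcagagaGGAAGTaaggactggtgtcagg
Ly6a2: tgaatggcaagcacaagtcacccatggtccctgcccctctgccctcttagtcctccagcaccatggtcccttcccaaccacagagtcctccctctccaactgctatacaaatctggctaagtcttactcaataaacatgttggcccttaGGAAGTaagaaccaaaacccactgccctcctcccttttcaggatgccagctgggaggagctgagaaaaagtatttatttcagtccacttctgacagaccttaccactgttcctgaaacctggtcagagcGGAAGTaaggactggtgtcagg
Ly6c1: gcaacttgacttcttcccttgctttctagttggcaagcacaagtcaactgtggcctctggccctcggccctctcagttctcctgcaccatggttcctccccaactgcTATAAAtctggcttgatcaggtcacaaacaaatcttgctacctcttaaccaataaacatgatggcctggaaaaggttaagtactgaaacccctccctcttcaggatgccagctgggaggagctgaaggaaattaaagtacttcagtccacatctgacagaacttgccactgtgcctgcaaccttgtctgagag
The windows of Ly6c2 and Ly6a2 were 95.1% identical in a global alignment, those of Ly6c2 and Ly6c1 62.3%. The Ly6c1 window begins further upstream in the shared sequence and ends sooner, so part of the 68 gap positions behind the 62.3% come from that offset. Substituted positions numbered 58, against 20 between the 2 transcripts. GGAAGT occurs at -106 and 29 (first base, relative to the annotated start) in Ly6c2 and at -101 and 29 in Ly6a2. It is not in the Ly6c1 window on either strand. That window ends before the stretch matching the site at 29, so it cannot show whether Ly6c1 has that site. TATAAA occurs at -143 in Ly6c1 and in neither of the others. Of 32851 mouse promoter windows of the same length, 23.8% hold GGAAGT and 13.6% hold TATAAA on 1 strand or the other, so either match is common. TTNCNNNAA occurs at 8 in both Ly6c2 and Ly6a2, where the letters match on either strand. It is not in the Ly6c1 window and is held by 36.6% of windows. GGAA, which lies within GGAAGT and at 8 overlaps TTNCNNNAA, occurs 4 times in each of the 3 windows and in 96% of all windows. TTGCNNAA and TTCNNNGAA, found in 10.8% and 8.3% of windows, matched in none of the 3, nor did an interferon response element written as GAAA, any pair of bases and GAAA again, found in 3.44%. A match is a description of letters and says nothing of binding.

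The main comparison asked whether the family differed between deficient and control monocytes. Ly6e and Ly6c2 were higher in every deficient library than in every control library, with means at 113% and 111% of control, and Ly6a and Ly6i had higher means with overlapping groups. With edgeR's quasi-likelihood test, 0 of the 5 members passed an adjusted p of 0.05 over all 12938 tested genes (Benjamini-Hochberg), where 113 genes or 0.873% passed, 46 of them (0.356%) higher and 67 (0.518%) lower in the deficient libraries. The groups did not overlap for 2 of the 5, both higher in the deficient libraries, as was so for 5.93% of all tested genes, with 6.7% lower in the same way and 12.6% in either direction. An unadjusted p under 0.05 was reached by the same 2 members and by 24% of all tested genes. DESeq2 placed both past the threshold, where it called 7.54% of the 11182 genes it gave an adjusted p, 3.53% as higher. The median log2 fold change of the 5 members was 0.15, beside 0.00072 over all tested genes, with 4 members above 0 and 1 below; 50.2% of all tested genes were above 0.

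**Figure D2:**
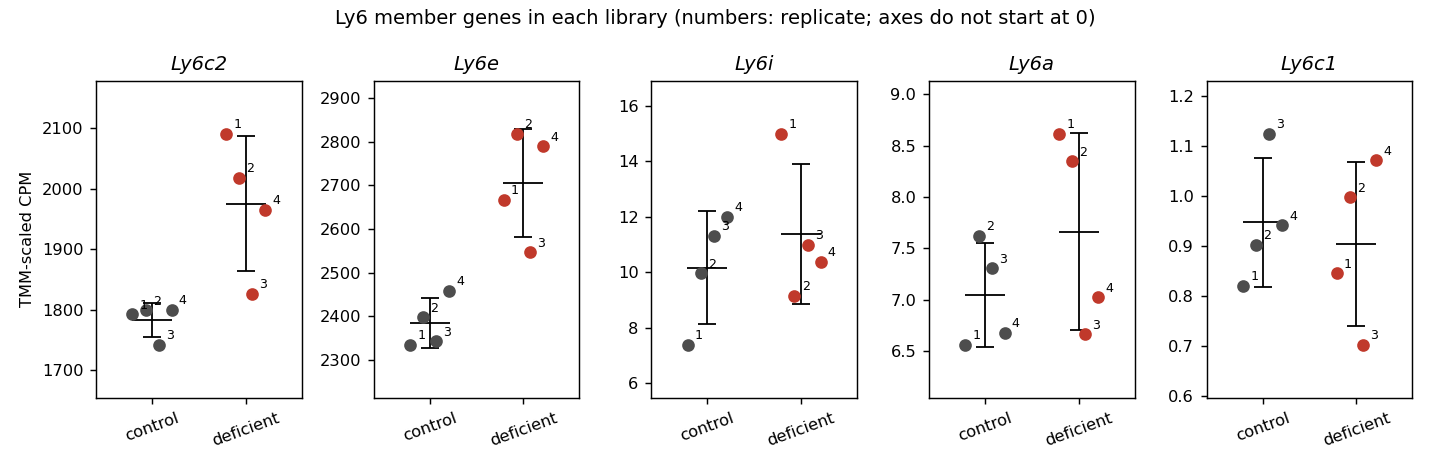
TMM-scaled CPM of each member in the 4 control (grey) and 4 deficient (red) libraries, numbered by replicate, with the mean and SD as bars; the axes do not start at 0. For Ly6c2 and Ly6e every deficient point is above every control point, with deficient 3 the lowest of its group, while the points of Ly6i, Ly6a and Ly6c1 overlap.

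Ly6e, the most abundant member before division by length, stood at 2335, 2399, 2344 and 2459 CPM in control 1 to 4 and at 2668, 2818, 2548 and 2789 CPM in deficient 1 to 4. The groups did not overlap, and deficient 3 lay closest to the controls. The means were 2706 ± 124 and 2384 ± 57.2 CPM (SD, n = 4 each), a log2 fold change of 0.18 (SE 0.04, 95% interval 0.09 to 0.27, edgeR adjusted p = 0.0585; exact permutation p = 0.0286, which is two-sided and the minimum for groups of this size). Its unadjusted p was the 201st smallest of all genes tested.
The adjusted p of Ly6e turned on the method and on single libraries. It was 0.00424 with DESeq2, 0.0325 without deficient 3 and 0.0498 without deficient 1, and 0.205 without deficient 4; without 1 library, the log2 fold change stayed between 0.16 and 0.21.

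Ly6c2, the gene of the sort antigen, stood at 1793, 1799, 1742 and 1800 CPM in control 1 to 4. In deficient 1 to 4 it stood at 2091, 2019, 1827 and 1966 CPM. Deficient 3 was only just above the highest control, and the deficient libraries spread more widely, with a coefficient of variation of 5.65% against 1.56% in the controls. The means were 1976 ± 112 and 1784 ± 27.9 CPM (SD, n = 4 each), a log2 fold change of 0.15 (SE 0.04, 95% interval 0.05 to 0.24, edgeR adjusted p = 0.0958; exact permutation p = 0.0286). The adjusted p was 0.0402 with DESeq2 and 0.0409 without deficient 3, and up to 0.234 without another library. Adding the Ly6c1 counts to those of Ly6c2 left the log2 fold change at 0.15 (adjusted p = 0.0959). Without deficient 3 edgeR called 3.61% of all tested genes (1.7% higher), and without deficient 1 it called 4.01% (1.62% higher), so calls of the members there stand against a larger background.

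**Figure D3:**
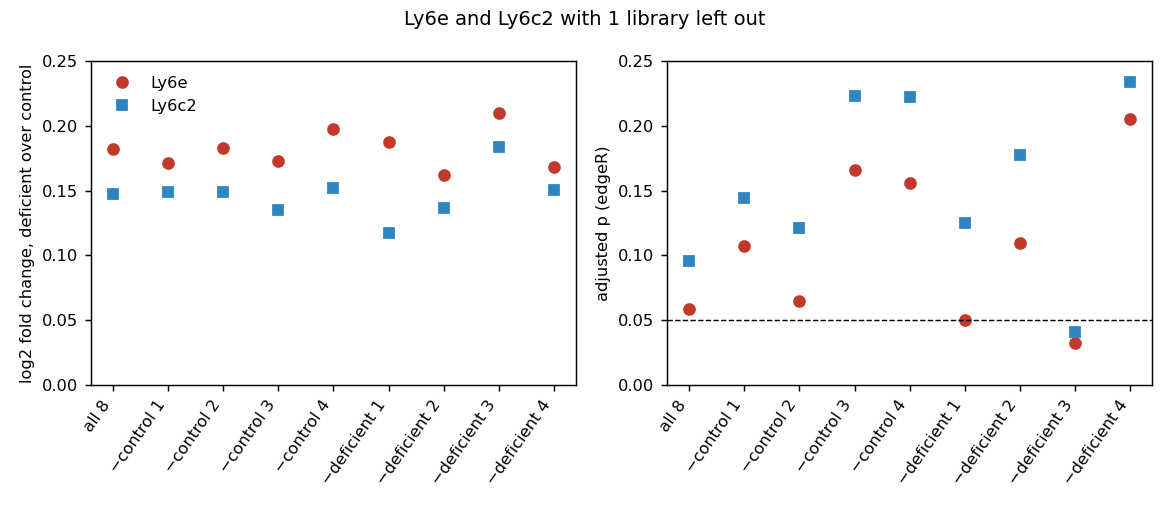
Log2 fold change (left) and edgeR adjusted p (right) of Ly6e (red circles) and Ly6c2 (blue squares) in the fit of all 8 libraries and in the 8 fits that each left out 1 library, with a dashed line at 0.05. The fold changes stay between 0.12 and 0.21, and the adjusted p-values reach from 0.0325 to 0.234, below the line for both genes without deficient 3 and for Ly6e alone without deficient 1.

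Ly6a, which encodes Sca-1, was at 6.56, 7.63, 7.31 and 6.68 CPM in control 1 to 4 and at 8.62, 8.35, 6.67 and 7.03 CPM in deficient 1 to 4. Deficient 1 and 2 lay above all controls and deficient 3 and 4 among them. The log2 fold change was 0.14 (SE 0.11, 95% interval -0.09 to 0.37, edgeR adjusted p = 0.452; exact permutation p = 0.343). Ly6i varied most among the members that had over 100 counts in each library, at 7.38, 9.97, 11.3 and 12.0 CPM in the controls and 14.99, 9.15, 10.99 and 10.4 CPM in the deficient libraries. Deficient 1 alone stood above the controls, and without it the log2 fold change went from 0.17 (SE 0.18, 95% interval -0.24 to 0.58, edgeR adjusted p = 0.607; exact permutation p = 0.486) to -0.0036. Ly6c1 was at 0.82, 0.90, 1.12 and 0.94 CPM in the controls and 0.85, 0.998, 0.70 and 1.07 CPM in the deficient libraries. Its log2 fold change was -0.019 (SE 0.21, 95% interval -0.47 to 0.44, edgeR adjusted p = 0.998; exact permutation p = 0.686). The intervals of these 3 genes include both no change and the sizes seen for Ly6e and Ly6c2, so at this depth and number of libraries such a difference was not detectable in them.

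**Figure D4:**
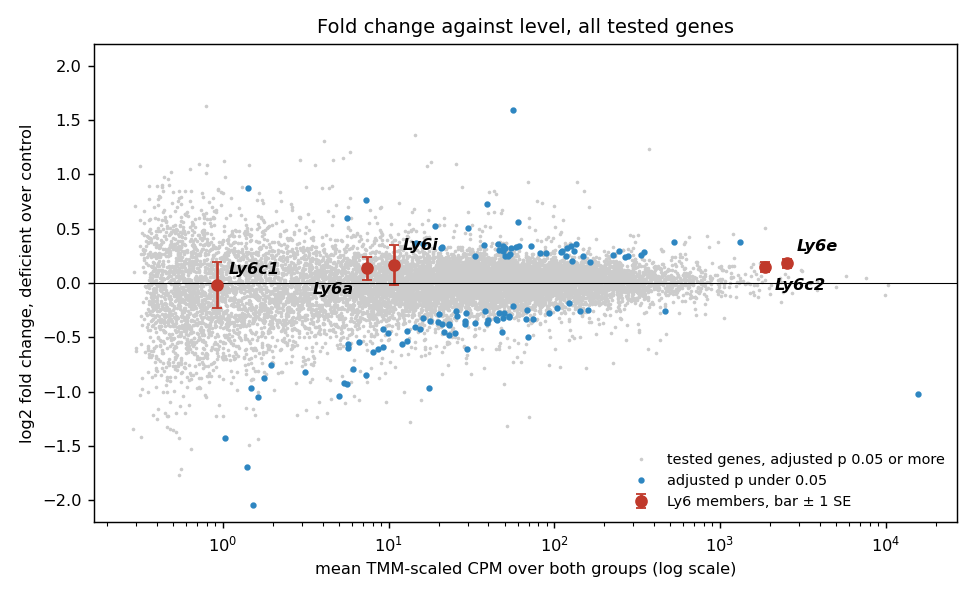
Log2 fold change, deficient over control, against mean CPM on a log axis for 12938 tested genes (grey), genes with an adjusted p under 0.05 (blue) and the 5 members (red, bar ± 1 SE). Ly6e and Ly6c2 lie near the upper end of the level axis at 0.18 and 0.15, where most genes scatter closely around 0.

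Ly6e and Ly6c2 ranked 14 and 26 by mean CPM, so the abundant genes are described beside them. Of 87 genes with a mean over 1000 CPM, 53 had a higher mean in the deficient libraries, the median log2 fold change was 0.022 and 2 passed the adjusted threshold. In 9 of the 87, Ly6e and Ly6c2 among them, all deficient values lay above all controls, and in 5 all lay below. Over all tested genes these shares were 5.93% and 6.7%.

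The neighbours of the cluster were described to see whether nearby genes had like values. GENCODE places 51 other genes within 500 kb of the members, of which 13 had a row and 10 were tested. Of these 10, 0 passed with edgeR, 2 had an unadjusted p under 0.05 and DESeq2 called 2. Over all tested genes, 24% had an unadjusted p under 0.05, and DESeq2 called 7.54% of those it gave an adjusted p. Of the 10, 3 had a log2 fold change above 0 and 7 below, with a median of -0.16. Ly6a2 was the nearest tested gene to Ly6c2 on its far side and was also abundant. It was at 554, 570, 526 and 511 CPM in control 1 to 4 and at 630, 645, 551 and 635 CPM in deficient 1 to 4, so that deficient 3 lay among the controls. Its log2 fold change was 0.19 (SE 0.06, edgeR adjusted p = 0.0889; exact permutation p = 0.0857), with an adjusted p of 0.0390 with DESeq2 and 0.0326 without deficient 3. Of the 75-base windows of its chosen transcript, 1.52% occur in another gene, Gm5960, a pseudogene of the same cluster. Of its 50-base windows, 11.3% occur in some other gene. The Ly6a2 transcript is 71.3% identical to that of Ly6c2. Counts of Ly6c2 were 3.10 to 3.52 times those of Ly6a2 in every library, with no scaling involved.
Lynx1, a membrane-bound modulator of nicotinic acetylcholine receptors and a Ly6 relative, was lower on the mean, at 4.25 against 6.02 CPM (log2 fold change -0.51, SE 0.15, edgeR adjusted p = 0.0851, or 0.0366 with DESeq2). Ly6d, an antigen of early B-lineage cells, was at 1.79 against 2.44 CPM (-0.53, SE 0.35, edgeR adjusted p = 0.378), and without control 4 its log2 fold change was -0.071. The remaining neighbours, Arc, Jrk, Them6, Ly6m, Gm6610, AC139671.1 and Gm5960, had log2 fold changes between -0.24 and 0.48, with edgeR adjusted p-values of at least 0.267.

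**Figure D5:**
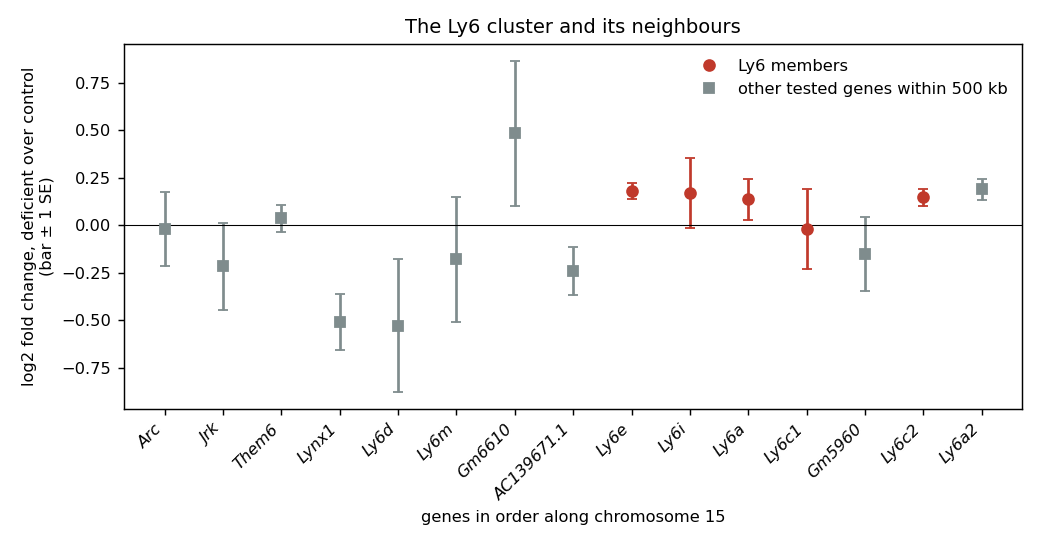
Log2 fold change, deficient over control, with bars of ± 1 SE, for the 5 members (red circles) and the 10 other tested genes within 500 kb (grey squares), in order along chromosome 15. Ly6e, Ly6i, Ly6a, Ly6c2 and Ly6a2 lie between 0.14 and 0.19 and Ly6c1 at -0.019, while 7 of the 10 neighbours lie below 0.

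Of 37 other genes of the Ly6 and urokinase receptor superfamily, 9 had a row and 7 were tested. Of the 7, 1 had a log2 fold change above 0 (Ly6a2) and 6 below, with a median of -0.18. With edgeR 0 passed, 3 had an unadjusted p under 0.05 and DESeq2 called 2. Beside this list and those below, 24% of all tested genes had an unadjusted p under 0.05. DESeq2 called 7.54% of the genes it gave an adjusted p. Cd177, a neutrophil antigen of this superfamily, had -0.43 (SE 0.17, edgeR adjusted p = 0.180). Ly6g, whose product the gate excludes, had 0 to 13 counts in a library and was not tested. Genes that build and attach the GPI anchor on which Ly6 proteins depend were close to balance, with 14 of 29 above 0 and 15 below and a median of -0.0017; 0 passed with edgeR, 3 had an unadjusted p under 0.05 and DESeq2 called 0. Pigu and Gpaa1, subunits of the transamidase that attaches the anchor, had 0.16 and 0.14 (edgeR adjusted p = 0.132 and 0.181), Pign 0.15 and Dpm3 0.13. Interferon response genes, listed because Ly6e and Ly6a are interferon-inducible, divided evenly, with 14 of 28 above 0, 14 below and a median of 0.0028; 0 passed with edgeR, 2 had an unadjusted p under 0.05 and DESeq2 called 1. Ifi27l2a had 0.20 (edgeR adjusted p = 0.0806, or 0.0318 with DESeq2), Oas1a 0.22, Irgm2 0.14 and Gbp2 -0.26 (edgeR adjusted p = 0.102, 0.299 and 0.333). Without deficient 1, where edgeR called 4.01% of all tested genes, Gbp2 went to -0.45 with an edgeR adjusted p of 0.0198. That was its only pass in the 8 fits with 1 library left out, and its highest adjusted p there was 0.614.

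The labels were checked against marker genes. Cre had 499 to 987 counts in the deficient libraries and 0 in the controls. Commd10 fell to 21.3 ± 2.17 from 29.2 ± 1.46 CPM (SD, n = 4 each, edgeR adjusted p = 0.0292), so most of its RNA remained in the deficient libraries. With 1 library left out its log2 fold change, -0.46 with all libraries, stayed between -0.53 and -0.42, and the adjusted p was under 0.05 in 4 of the 8 fits. The genes of the gate were present, Ptprc (CD45), Itgam (CD11b) and Csf1r (CD115), with log2 fold changes of -0.12, 0.028 and -0.12 (edgeR adjusted p = 0.241, 0.705 and 0.250), and Kit (CD117) had 3 to 12 counts. Total counts ran from 14231121 to 31040255, control 3 and deficient 3 being the shallowest. Nothing in the labels ties a library to 1 mouse or litter; the p-values therefore describe the spread of these libraries, which may be technical.

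Other cells carry these antigens, so their markers are given beside the members; in bulk RNA, fewer cells of a type and less RNA per cell cannot be told apart. In none of the marker lists did a gene pass with edgeR. The values that follow are log2 fold changes, deficient over control. Except for Retnlg, Csf3r, Treml4, Cd300e, Itgal and Spn, they are of the tested genes with the smallest p in each list.
Of 8 classical monocyte markers 4 were above 0 and 4 below (median -0.019), with summed levels of 18593 to 19356 CPM in control libraries and 18157 to 18894 in deficient ones. Fn1 (fibronectin) had -0.11, F13a1 (a coagulation factor chain) 0.11 and Vcan (versican) 1.24 with an SE of 0.47. Of 11 markers of Ly6C-low monocytes, the subset with little Ly6c2, 9 were below 0 (median -0.30), with summed levels of 1661 to 1831 CPM against 1216 to 1695. Fabp4 had -1.13, the scavenger receptor Cd36 -0.91, the fractalkine receptor Cx3cr1 -0.60 and Nr4a1, a nuclear receptor these cells need, -0.60. Treml4 had 0.16 and Cd300e 0.35, the latter with only 2 to 15 counts in a library. Itgal, Cx3cr1 and Spn had the highest control means in the list, at 580, 446 and 346 CPM. Of these, Itgal and Spn were near 0, at -0.0022 and -0.026. Fabp4 and Cd36 were scarce, with means of 0.77 and 4.34 CPM in the controls and 0.33 and 2.35 in the deficient libraries. Fabp4 had only 5 to 22 counts in a library. Without deficient 1, Fabp4 had an edgeR adjusted p of 0.0494, and without deficient 3, Cd36 had 0.0357. Each passed in only that 1 of the 8 fits with 1 library left out, and their highest edgeR adjusted p-values were 0.235 and 0.275. Those fits called 4.01% and 3.61% of all tested genes.
Of 8 tested markers of mature neutrophils (9 listed, all in the table) 6 were above 0 (median 0.35), with summed levels of 763 to 887 CPM in control libraries and 779 to 1053 in deficient ones. The collagenase Mmp8 had 0.44, S100a8 0.58, S100a9 0.40 and Cxcr2 0.39, while Retnlg had -0.46 and Csf3r -0.065. Csf3r and Mmp8 had the highest means in the list, at 385 and 244 CPM in the controls and 368 and 331 in the deficient libraries. Retnlg and Cxcr2 were at 0.86 and 0.84 CPM in the controls. Mmp8 had an edgeR adjusted p of 0.0366 without deficient 3, where 3.61% of all tested genes were called. That was its only pass in the 8 fits with 1 library left out, and its highest was 0.371.
All 7 B and plasma cell markers were below 0 (median -0.64), with summed levels of 425 to 573 CPM in control libraries and 389 to 441 in deficient ones, most of it Ighm, the immunoglobulin heavy chain, at a mean of 478 and 395 CPM. Mzb1 had -1.16, Ighm -0.28, Sdc1 -0.64 and Jchain -0.81. Mzb1 had only 5 to 21 counts in a library, and Sdc1 and Jchain had means of 0.97 and 2.03 CPM in the controls. Ighm had an edgeR adjusted p of 0.0477 without control 2, where 298 genes passed against 113 with all libraries. That was its only pass in the 8 fits with 1 library left out, and its highest adjusted p there was 0.245. Stem and progenitor markers, cells that carry Sca-1, had 5 of 8 in the table and 3 tested, all below 0 (Flt3 -0.66, Cd34 -0.23 and Meis1 -0.14), and summed to 25.8 to 31.3 and 16.4 to 24.5 CPM. Plasmacytoid dendritic cell markers, 6 of 6 in the table and 3 tested, were below 0 (Spib -0.53, Siglech -0.69 and Ccr9 -0.41) and summed to 6.75 to 17.1 and 6.20 to 10.8 CPM; without control 4 these were -0.28, -0.073 and -0.07.
Of T and NK cell markers 4 of 10 had a row, summed to 1.16 to 2.55 and 0.76 to 2.02 CPM, and Nkg7, the tested one, had 0.33. Of endothelial markers 4 of 8 had a row, summed to 0.84 to 1.39 and 0.82 to 1.43 CPM, and Cdh5, the tested one, had 0.17. Of the markers tested, 5 of 8 for classical monocytes and 3 of 11 for Ly6C-low monocytes had an unadjusted p under 0.05. So did 1 of 8 for neutrophils, 1 of 3 for progenitors and 2 of 7 for B or plasma cells. Over all tested genes the share was 24%. Among the genes named here DESeq2 called Cd36, Flt3 and Ighm, where it called 7.54% of the 11182 genes it gave an adjusted p. Listed genes that had no row are not given a level. The part of these cells in the differences of Ly6e and Ly6c2 was not tested.

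Likeness to each member over the 8 libraries was measured as Pearson's r on log2 CPM, as a description among about 9069 named genes of at least 5 CPM; libraries of 1 genotype share their difference from the other, so r is no sign of a link. For Ly6c2 the closest were Sod2 (r = 0.96, Spearman's rho 0.98), the mitochondrial superoxide dismutase, Smc5 (r = 0.96, rho 0.69) and Pcgf3 (r = 0.95, rho 0.88). For Ly6e they were Fam96b (r = 0.995, rho 1), Med28 (r = 0.99, rho 0.98) and Wrnip1 (r = 0.98, rho 0.98). For Ly6i, B2m, the light chain of MHC class I, came first (r = 0.97, rho 0.95), then Dync1h1 and Cdk12 (r = 0.97 and 0.96, rho 0.88 and 0.95). For Ly6a they were Nol9, Med21 and Nol11 (r = 0.94, 0.94 and 0.88, rho 0.90, 0.81 and 0.64), and for Ly6c1 Dse, Sf3b4 and Tut1 (r = 0.96, 0.95 and 0.95, rho 0.95, 0.88 and 0.95). Among the members themselves, deviations from the genotype means correlated at r = 0.73 for Ly6c2 with Ly6a, 0.69 for Ly6c1 with Ly6e and 0.57 for Ly6c2 with Ly6e. Over all 10 pairs r lay between -0.08 and 0.73. Ly6c1 had only 12 to 32 counts in a library, so an r of this size also arose with a gene near the limit of detection.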

How the data were processed

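The authors deposited raw counts for each gene and library, according to the header of the table; its normalized block was not used. PolyA RNA was sequenced as single reads, per the labels' protocols. The submitters' processing notes name GRCm38, cutadapt, STAR 2.7.3a, HTSeq 0.12.4 and DESeq2, with no roles; strandedness and the handling of reads that match several genes are not stated, so a gene and an overlapping or antisense partner may share counts, and PCR copies cannot be told from molecules. All 8 count columns matched a sample title. Title numbers are lower in every control (2 to 6) than in every deficient sample (11 to 14), and an order behind them cannot be told apart from genotype. Libraries of a group differed beyond counting noise (chi-square per degree of freedom 2.88 to 23.4).

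Counts were filtered (filterByExpr, minimum count 10, minimum total 15; 12938 genes left), scaled by TMM and fitted with edgeR 4.0.16 (R 4.3.3, robust quasi-likelihood, genotype only, two-sided, Benjamini-Hochberg over all tested genes); the Cre row was left out. SEs and 95% intervals came from the F statistic; for Ly6c1 alone among the members edgeR raised the p to that of a Poisson fit, from 0.93 by the F statistic to 0.994; log2 CPM used a prior count of 2. DESeq2 1.42.0, other scalings, no filter and 1 library left out were tried. Genes were placed with GENCODE M21 (GRCm38); for length, the principal coding transcript was chosen, the longest where several tie. Ly6a2, Ly6m and Pigy were matched through RefSeq synonyms, and Itgam, listed under 2 identifiers, by the more abundant one. Retnlg and Csf3r were named because they went the other way from most neutrophil markers. Otherwise, named were the members, Commd10, the gate genes, the 4 genes of smallest p in each list, the tested neighbours and, per member, the 3 genes of highest r. One gene that this rule selects is not reported here. The members and lists were chosen with earlier results of these data known.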

Additional observations from a re-analysis of the deposited data

Results flagged for a closer look

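In the controls, control 3 stood below the other 3 for Ly6c2, at 1742 CPM against 1793 to 1800 CPM, and its gap to the nearest was 0.876 of the range of the group, above the 95% critical value of Dixon's test for 4 samples. Chance gives such a gap in about 1 in 20 groups, and 12 groups were examined. Without control 3 the log2 fold change of Ly6c2 was 0.13 (edgeR adjusted p = 0.223).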

How the results depend on the processing

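Ly6c2, Ly6e and Ly6a kept a log2 fold change above 0 under every alternative run for them, and no scaling, filter or estimation choice within edgeR on all 8 libraries moved a member past the threshold. With 1 library left out, log2 fold changes ranged from 0.12 to 0.18 for Ly6c2, 0.16 to 0.21 for Ly6e, 0.07 to 0.19 for Ly6a, -0.0036 to 0.27 for Ly6i and -0.11 to 0.058 for Ly6c1, and 0 to 2 members passed. With DESeq2, Ly6c2 (0.15) and Ly6e (0.18) passed, 2 of 5. With control 3 and deficient 3, the shallowest libraries, both left out (added after seeing the data), Ly6c1 was at 0.12, Itgam at -9.35e-07 and 0 members passed.

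Of all tested genes, 113 passed (46 higher, 67 lower). Without robust estimation it was 41 (20 and 21), with DESeq2 843 (395 and 448), and with control 3 and deficient 3 left out 1 (0 and 1). Leaving out 1 library gave 1 to 522 (0 to 225 higher, 1 to 311 lower); the cause was not tested. The difference in the Ly6c1 share ranged from -0.010 to -0.0037 percentage points. Log2 fold changes of Arc ranged from -0.12 to 0.077. No paired analysis was possible because the labels give the groups no shared replicate numbers. Counting error is largest for Ly6c1, is about as large as the control spread for Ly6a, and is small beside the 4-library spread for Ly6c2 and Ly6e.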
